A study of Mus musculus with 16 samples.

Results

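The genes examined here encode the proteasome and its regulators in the lumbar spinal cord of SOD1G93A mice. They were chosen by name alone, as every gene whose symbol on the array was Psm followed by a letter from a to g and a number. The rule gave 44 of 27962 gene names, measured by 67 of 41174 probes. SOD1G93A mice carry a human SOD1 transgene with an amyotrophic lateral sclerosis mutation and are used as a model of that disease. Male SOD1G93A mice and their non-transgenic wild-type controls, all of the mixed B6SJL background, were taken at 40 and at 80 days, both before symptoms, with 4 arrays for each genotype at each age. The methods speak of 5 animals in each microarray group and of arrays removed for insufficient quality, which left 4, and the labels call the arrays of a group biological replicates. Each array held Cy3-labeled RNA of 1 spinal cord sample and the same type of Cy5-labeled reference, a pool of neonatal heart, kidney and liver RNA of both genotypes. The transgene is driven by the human SOD1 promoter, which is active in most cell types, and whole lumbar cord mixes motor neurons with all other cells of the tissue.

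The 26S proteasome degrades proteins that have been tagged with ubiquitin. Its 20S core is a barrel of alpha rings, which form the gate, around beta rings, of which *Psmb6*, *Psmb7* and *Psmb5* encode the subunits with peptidase activity. The 19S cap sits on the end of the barrel, where its ATPases unfold substrates and its non-ATPase subunits bind ubiquitin chains and remove them. In immune cells and under interferon gamma, newly made cores take up *Psmb9*, *Psmb10* and *Psmb8* in place of *Psmb6*, *Psmb7* and *Psmb5*, which gives the immunoproteasome and peptides that fit MHC class I molecules. In the nervous system the immunoproteasome is known mainly from microglia and reactive glia.

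By role, the 44 genes comprised 8 of the alpha ring, 7 constitutive subunits of the beta ring, 3 of the immunoproteasome, 6 ATPases and 11 other subunits of the 19S cap, 4 activators and 4 assembly factors or inhibitors. The remaining gene, *Psmc3ip*, fits the naming rule but encodes a meiotic recombination factor. The activator gene *Psme2* was present only under the name *Psme2b-ps*, which denotes a near-identical copy, and signal of the 2 cannot be told apart. *Psmb11* of the thymus core and the assembly chaperones *Psmg1*, *Psmg2* and *Psmg3* were printed on the array under older names that the rule does not take. Of the 44 genes, 43 were tested, each by its brightest probe, and all 43 of these probes were well above background on 16 of 16 arrays. The exception was *Psma8*, a testis-enriched alpha subunit, which was above background on only 3 arrays.

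Constitutive and immune subunits are related in sequence, so it matters whether their probes can tell them apart. The probes of *Psmb5* and *Psmb8*, and those of *Psmb6* and *Psmb9*, lie over corresponding stretches of the paired subunits. They are shown for that reason, as printed on the array, with capitals marking bases that are identical in the best gap-free overlap of each pair.
Psmb5 (mm7, chr14:49480764-49480823, minus strand): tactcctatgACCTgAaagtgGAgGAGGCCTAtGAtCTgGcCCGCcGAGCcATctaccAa
Psmb8 (mm7, chr17:32280668-32280727, plus strand): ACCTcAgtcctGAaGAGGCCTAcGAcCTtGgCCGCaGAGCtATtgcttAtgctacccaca
Psmb6 (mm7, chr11:70609086-70609145, plus strand): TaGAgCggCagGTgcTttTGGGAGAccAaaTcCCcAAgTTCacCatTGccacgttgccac
Psmb9 (mm7, chr17:32262147-32262206, minus strand): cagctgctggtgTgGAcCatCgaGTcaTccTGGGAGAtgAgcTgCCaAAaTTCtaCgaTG
The first pair shared 31 of 50 overlapping bases and the second 27 of 48, or 62.0% and 56.2%. No run of shared bases approached the 60 bases of a probe. *Psmb8* had a second probe that crosses an exon junction, spanning 325 bases of the genome, and this was the brighter of its probes. That brighter probe gave the main *Psmb8* values and was not compared with *Psmb5*. Probes of *Psmb7* and *Psmb10* were not compared either. Probes were compared with each other only, so binding to the transcript of the paired subunit was not tested.

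The arrays had 46.2% to 55.4% of probes above background in Cy3. Marker genes of the cord were present: all 8 astrocyte genes, 7 of 7 oligodendrocyte genes and 6 of 6 neuron genes on the array could be tested, and 3 of 4 motor neuron genes. Marker genes of tissue outside the cord varied widely between arrays, and whether such tissue was carried over was not tested. The score of a gene list on an array, taken as the middle value of its genes after each was centred on its 16-array mean on the log2 scale, ran for skeletal muscle from -0.72 to 0.12 in wild-type at 40 days and from -0.57 to 2.30 in SOD1G93A at 40 days. For Schwann cells of the roots it ran from -1.31 to 2.02 and from -1.21 to 0.47 in the same groups. For the 43 proteasome genes it stayed within -0.05 to 0.06 on all 16 arrays. These lists differ in length, and some shorter proteasome lists ranged wider. The 7 alpha ring genes ran from -0.11 to 0.10, and the 4 activators from -0.15 to 0.16. Every slide held 1 array of each group and each group had a fixed position on the slide, and an effect of position cannot be told apart from that of the group.

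Most proteasome genes differed little from array to array. The median standard deviation of their log2 ratios over 16 arrays was 0.0885, against 0.12 over all 15247 genes tested, which were not matched for brightness. The lowest value belonged to *Psmb4*, a structural beta subunit, with 0.0628. The highest belonged to *Psmb8* with 0.288 and *Psmb9* with 0.272, and the third immune subunit, *Psmb10*, had 0.0931. In the reference-based ratio, which is relative to other genes of like brightness, 26 of the 43 genes were above 0. The ATPases *Psmc5* and *Psmc1* stood highest, with means of 1.57 and 1.45 on the log2 scale over 16 arrays. Lowest were the activators *Psme1* with -1.83 and *Psme4*, which encodes PA200, with -1.24. These ratios compare the cord with neonatal organs and not one gene with another.

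The first question was whether the core, the cap or the immunoproteasome differed between SOD1G93A and wild-type mice at 40 days. No proteasome gene did at the study's threshold, an unadjusted limma p under 0.05. The count was 0 of 43, where 3.9% of 14863 genes passed, 1.86% as higher and 2.04% as lower in SOD1G93A. The median change of the 43 genes was -0.01 on the log2 scale, and that of all genes was -0.002. The 95% intervals had a median half-width of 0.138, and those of 41 of the 43 genes lay within 0.3 of 0. The exceptions were *Psmb9* and *Psmd4*. Smaller changes could not be resolved with 4 arrays against 4.

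Within the core, all 7 alpha subunits tested had a lower mean in SOD1G93A at 40 days, from -0.13 for *Psma3* to -0.02 for *Psma1*, with none past the threshold, and 6 of 7 were lower with Cy3 alone or the series matrix. Cell markers moved in the same comparison. All 8 astrocyte genes were higher in SOD1G93A, 4 of them past the threshold, though 6 of 8 were higher with the series matrix and 5 of 8, with none past it, without loess. Their score ran from -0.12 to -0.04 in wild-type and from 0.01 to 0.21 in SOD1G93A. Of 7 oligodendrocyte genes 6 were higher, 3 past the threshold, against 5 with Cy3 alone or the series matrix, and their scores ran from -0.02 to 0.22 and from 0.14 to 0.39. All 6 genes of meningeal fibroblasts and all 3 of Schwann cells were lower in all of the scalings run, with medians of -0.67 and -1.03. None of these passed, except 5 and 2 with array weights. The fibroblast scores ran from -1.19 to 0.88 and from -1.02 to 0.20. Of 15 microglia genes 9 were higher, and *C1qb* and *C1qc* passed, where 3.9% of all genes did. Leaving out any of 3 of the 8 arrays ended the call of *C1qb*, and any of 2 that of *C1qc*. All 6 skeletal muscle genes were higher, with a median of 0.82 and none past the threshold. The part of these cells in the alpha subunit values was not tested. The 7 constitutive beta subunits had changes from -0.08 for *Psmb2* to 0.09 for *Psmb5*. *Psmb5* encodes the chymotrypsin-like site. Its log2 ratios were 0.41, 0.46, 0.45 and 0.27 in wild-type and 0.48, 0.58, 0.51 and 0.39 in SOD1G93A, and the groups overlapped. The interval of its change was -0.05 to 0.23. *Psmb6*, the caspase-like site, and *Psmb7*, the trypsin-like site, had changes of 0.01 and 0.02, with intervals of -0.12 to 0.14 and -0.14 to 0.19.

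In the 19S cap at 40 days, the 6 ATPases ranged from -0.04 for *Psmc2* to 0.06 for *Psmc1*, and the 11 non-ATPase subunits from -0.08 for *Psmd8* to 0.18 for *Psmd4*. *Psmd4* encodes a ubiquitin receptor, and its interval was -0.03 to 0.40. The 4 activators had changes from -0.02 for *Psme3* to 0.07 for *Psme4*. *Psme1* and *Psme2b-ps*, the activator subunits that accompany the immunoproteasome, had changes of 0.02 and 0.02. The assembly chaperones *Psmd5*, *Psmd9* and *Psmd10* and the inhibitor *Psmf1* lay between -0.07 and -0.01. A second, dimmer probe of *Psmd9* differed from the first and is described with the called genes.

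The immunoproteasome genes had the widest spread at this age too. *Psmb9* had log2 ratios of -0.83, -0.38, -0.55 and -0.26 in wild-type and -0.76, -0.56, -0.79 and -0.92 in SOD1G93A. The groups overlapped, because 1 wild-type array was as low as the transgenic ones. The change was -0.26 with an interval of -0.53 to 0.01 and a limma p of 0.0602. Without wild-type replicate 1 it was -0.37, with an unadjusted limma p of 0.00483, and without SOD1G93A replicate 2 it was -0.32 with 0.0306. *Psmb8* had ratios of -0.92, -0.75, -0.78 and -0.82 against -0.60, -0.70, -0.92 and -0.85, a change of 0.05. *Psmb10* had 0.50, 0.54, 0.51 and 0.35 against 0.49, 0.49, 0.39 and 0.38, a change of -0.04. Both sets overlapped, with intervals of -0.12 to 0.22 and -0.17 to 0.10.

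**Figure D1:**
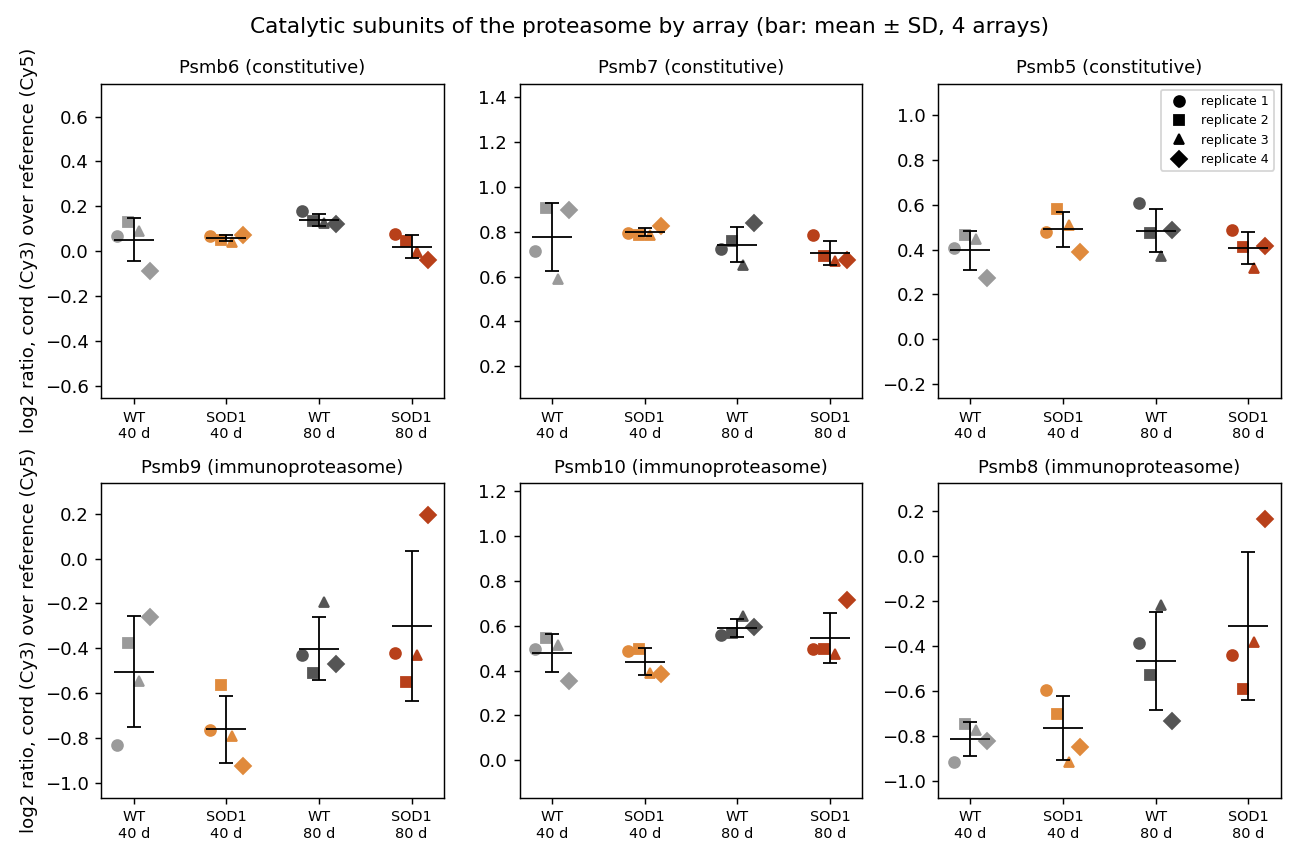
Log2 ratio of cord (Cy3) over reference (Cy5) on each array for the constitutive catalytic subunits (top) and the immune subunits that replace them (bottom), with WT for wild-type and SOD1 for SOD1G93A; points are arrays, bars are mean and SD of 4 arrays, and every panel spans the same 1.4 log2 units. *Psmb8* and *Psmb9* scatter more than the other 4 genes, and replicate 4 of SOD1G93A at 80 days is the highest array for all 3 immune subunits.

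At 80 days, 2 of 43 proteasome genes passed the threshold, both of them structural subunits of the beta ring and in opposite directions. Over all 15079 genes tested 6.46% passed, 3.14% as higher and 3.32% as lower. The proteasome genes were thus not called more often than genes in general. The median change of the 43 genes was -0.01, and that of all genes was -0.004. The median half-width of the intervals was 0.156, and 34 of 43 intervals lay within 0.3 of 0. No proteasome gene passed after Benjamini-Hochberg adjustment, with 0.668 as the smallest adjusted limma p among their probes, and neither did any of the 21618 probes tested.

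*Psmb3*, a structural beta subunit, was down regulated at 80 days. Its ratios were -0.02, 0.04, 0.06 and 0.04 in wild-type and -0.13, -0.16, -0.11 and -0.34 in SOD1G93A. All 4 transgenic arrays were below all 4 wild-type arrays, and the difference was negative on 4 of 4 slides. The change was -0.21 with an interval of -0.36 to -0.07, an unadjusted limma p of 0.00849 and an exact two-sided permutation p of 0.0286, the smallest that 4 arrays against 4 allow. Without SOD1G93A replicate 4, the lowest array, it was -0.16 and still passed. The second probe of the gene did not show it: its ratios were 0.30, 0.09, 0.09 and -0.02 against 0.03, 0.03, 0.28 and -0.11, the groups overlapped and the change was -0.06, with an interval of -0.27 to 0.16. With the mean of both probes the change was -0.14 and the unadjusted limma p 0.086, and without loess they were -0.14 and 0.104.

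*Psmb2*, another structural beta subunit, was up regulated at 80 days. Its ratios were -0.33, -0.39, -0.46 and -0.30 in wild-type and -0.18, -0.35, -0.07 and -0.12 in SOD1G93A. The transgenic arrays were higher on all 4 slides, but replicate 2 lay among the wild-type values, so the groups overlapped. The change was 0.19 with an interval of 0.02 to 0.35 and an unadjusted limma p of 0.0296, and the exact permutation p was 0.0857. The call ended when any of 5 of the 8 arrays was left out, with changes from 0.15 to 0.24 over all 8, and also with processed signals, Cy3 alone, the series matrix or array weights, which gave 0.14 to 0.20. The gene has 1 probe on the array and its Cy3 signal was dim, with a median of 128 intensity units, against 2492 for the called probe of *Psmb3*.

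Apart from *Psmb2* and *Psmb3*, the constitutive beta genes had lower means in SOD1G93A at 80 days without passing the threshold, which made 6 of 7 lower with *Psmb3* included, against 5 of 7 with processed signals or the series matrix and 3 of 7 without loess. *Psmb6* came closest, with ratios of 0.18, 0.14, 0.12 and 0.12 in wild-type and 0.07, 0.04, -0.00 and -0.04 in SOD1G93A. These groups did not overlap. The change was -0.12, with an interval of -0.24 to 0.001 and an unadjusted limma p of 0.0517. *Psmb5* and *Psmb7* had changes of -0.08 and -0.04, with overlapping groups. In all, 3 of 43 genes had groups that did not overlap at 80 days, where 4.19% of all genes did. At 40 days 0 of 43 had, where 2.62% of all genes did. Beside *Psmb3* and *Psmb6*, the third at 80 days was *Psma1* of the alpha ring, which did not pass the threshold. Its ratios were -0.39, -0.31, -0.37 and -0.34 in wild-type and -0.45, -0.57, -0.40 and -0.45 in SOD1G93A. Alpha subunits ranged from -0.13 for *Psma2* to 0.06 for *Psma3*, with 4 of 7 lower, and 3 of 7 without loess. When loess was left out, the median of the proteasome genes turned to 0.0415. Of the 8 astrocyte genes, all higher in SOD1G93A at 40 days, 7 were lower at 80 days. Of these *Slc1a2* passed with -0.27, where 6.46% of all genes did, and any of 4 of the 8 arrays ended its call when left out. Of 6 neuron genes 5 were lower and *Syt1* passed with -0.33, a call that any of 5 arrays ended. Of 7 oligodendrocyte genes 4 were higher and *Mog* passed with 0.27, a call that any of 4 arrays ended. Of 15 microglia genes 13 were higher with 0 past the threshold, and SOD1G93A replicate 4 scored 1.01 where its group otherwise reached 0.10. The part of these cells in the proteasome values was not tested.

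No gene of the 19S cap passed the threshold at 80 days by its brightest probe. Its ATPases ranged from -0.14 for *Psmc6* to 0.05 for *Psmc4*, with 3 of 6 higher, and 5 of 6 without loess. Its other subunits ranged from -0.12 for *Psmd11* to 0.13 for *Psmd13*, a lid subunit, with 4 of 11 higher, 6 of 11 with the mean of a gene's probes and 9 of 11 without loess. Dimmer second probes of *Psmd2*, a base scaffold subunit, and of *Psmd14*, the deubiquitinase of the lid, were higher in SOD1G93A, by 0.26 and 0.15 with unadjusted limma p of 0.0235 and 0.0438. Their brighter probes gave 0.09 and -0.004 and did not pass. Of the 15 genes with several tested probes, 5 had probes of opposite sign at 80 days and 9 at 40 days. The activators ranged from -0.08 to 0.02, with *Psme1* at -0.07 and *Psme2b-ps* at -0.05.

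**Figure D2:**
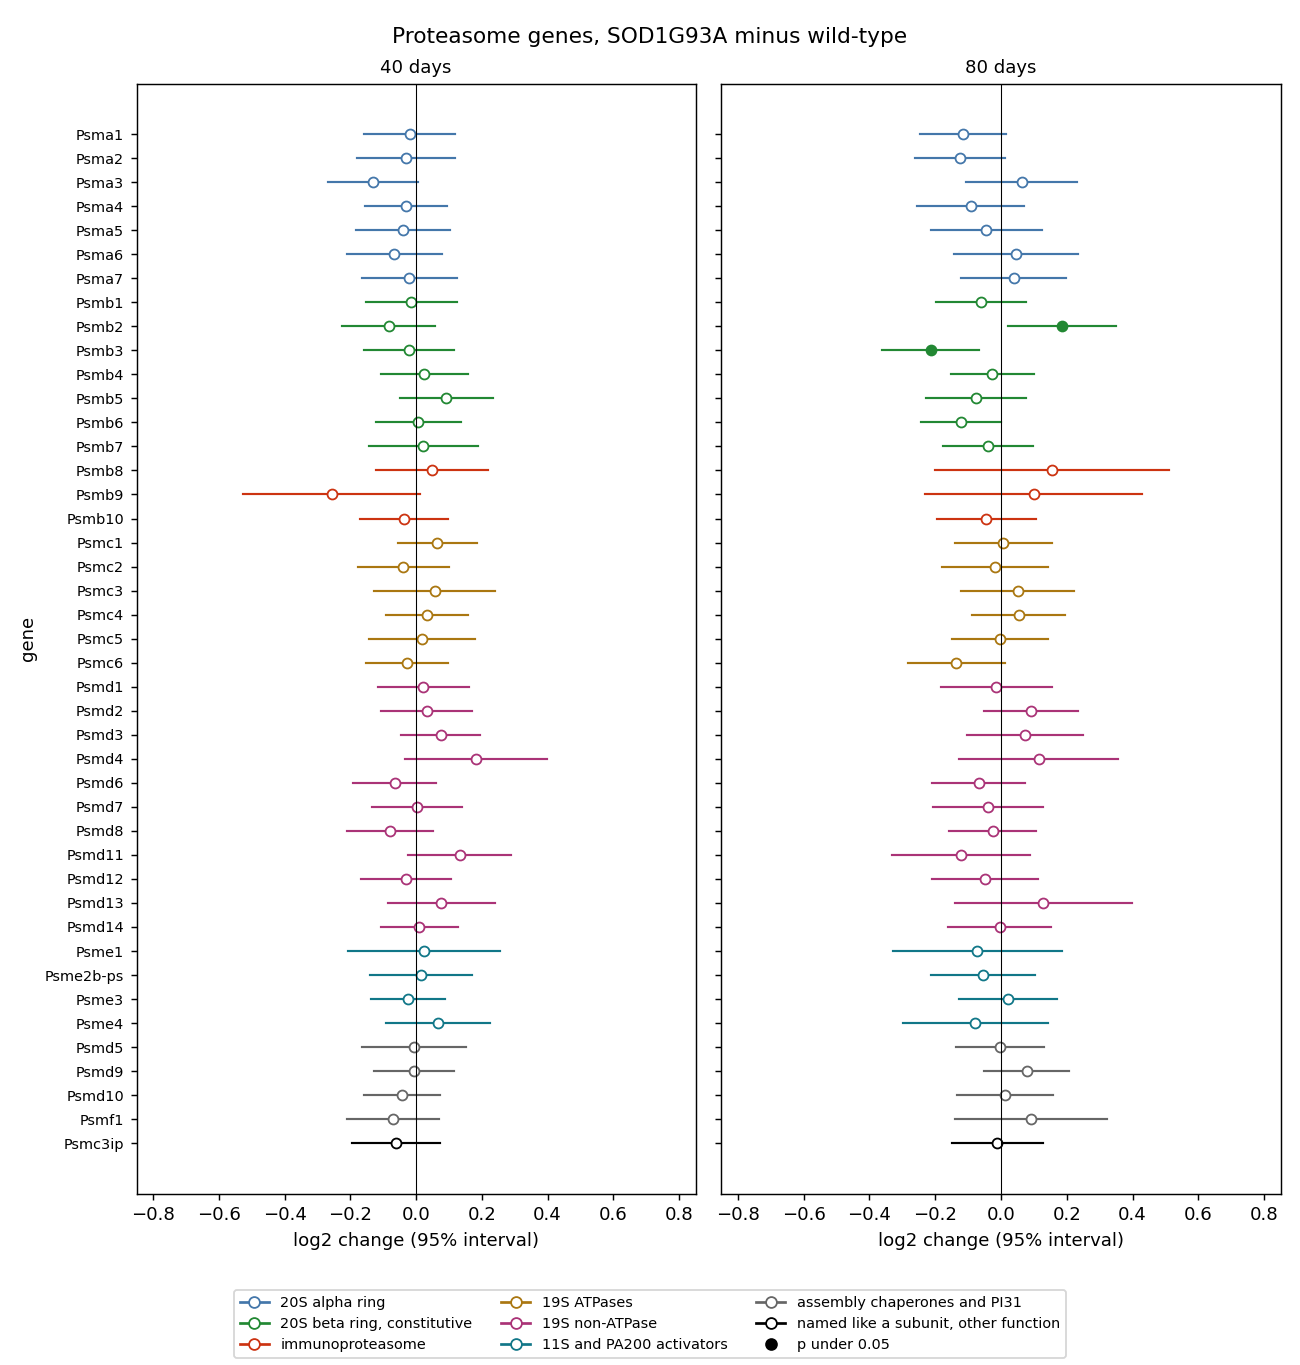
Log2 change (SOD1G93A minus wild-type) of the brightest probe of each of the 43 tested genes at 40 days (left) and 80 days (right), ordered and coloured by role; lines are 95% intervals from limma and filled points have an unadjusted p under 0.05. At 40 days no point is filled, and at 80 days *Psmb2* and *Psmb3* are.

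The immunoproteasome was not shown to differ by genotype at 80 days, and 1 array decided the direction for *Psmb8* and *Psmb9*, though not for *Psmb10*. *Psmb8* had ratios of -0.39, -0.53, -0.22 and -0.73 in wild-type and -0.44, -0.59, -0.38 and 0.16 in SOD1G93A. The first 3 transgenic arrays lay inside the wild-type range and replicate 4 lay far above it. The change was 0.15, with an interval of -0.20 to 0.51, and without that array it was -0.004. The other *Psmb8* probe gave -0.45, -0.50, -0.55 and 0.36 in SOD1G93A and a change of 0.16. *Psmb9* had -0.43, -0.51, -0.19 and -0.47 against -0.42, -0.55, -0.43 and 0.19, a change of 0.10 with an interval of -0.23 to 0.43. Without SOD1G93A replicate 4 it was -0.07. *Psmb10* had 0.56, 0.56, 0.64 and 0.60 against 0.49, 0.50, 0.47 and 0.71, a change of -0.04, and it stayed negative when any of the 8 arrays was left out. Here too replicate 4 was the highest of all arrays, while the other 3 transgenic arrays lay below every wild-type array.

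The same array stood apart for the genes that act with the immunoproteasome and for microglia. On SOD1G93A replicate 4 at 80 days the list of peptide loading and interferon genes had a score of 0.51, where the other 15 arrays lay between -0.22 and 0.21. Its microglia score was 1.01. The next highest microglia score, 0.68, was on wild-type replicate 3 at 80 days, which was also the highest wild-type array at that age for *Psmb8*, *Psmb9* and *Psmb10*. The part of microglia in these values was not tested, and in whole cord more cells of a type and more RNA per cell cannot be told apart. SOD1G93A replicate 4 also had 63 Cy3 spots whose local background exceeded the spot by over 20 units, more than the 0 to 5 on the other arrays. Its skeletal muscle score was 0.98, which did not set it apart, since replicate 2 of its group had 1.09. *Psmb8* and *Psmb9* were dim genes, with median Cy3 signals of 85.5 and 92.5 intensity units over 16 arrays, near the backgrounds of 35 to 38, so that a log2 ratio understates a change.

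**Figure D3:**
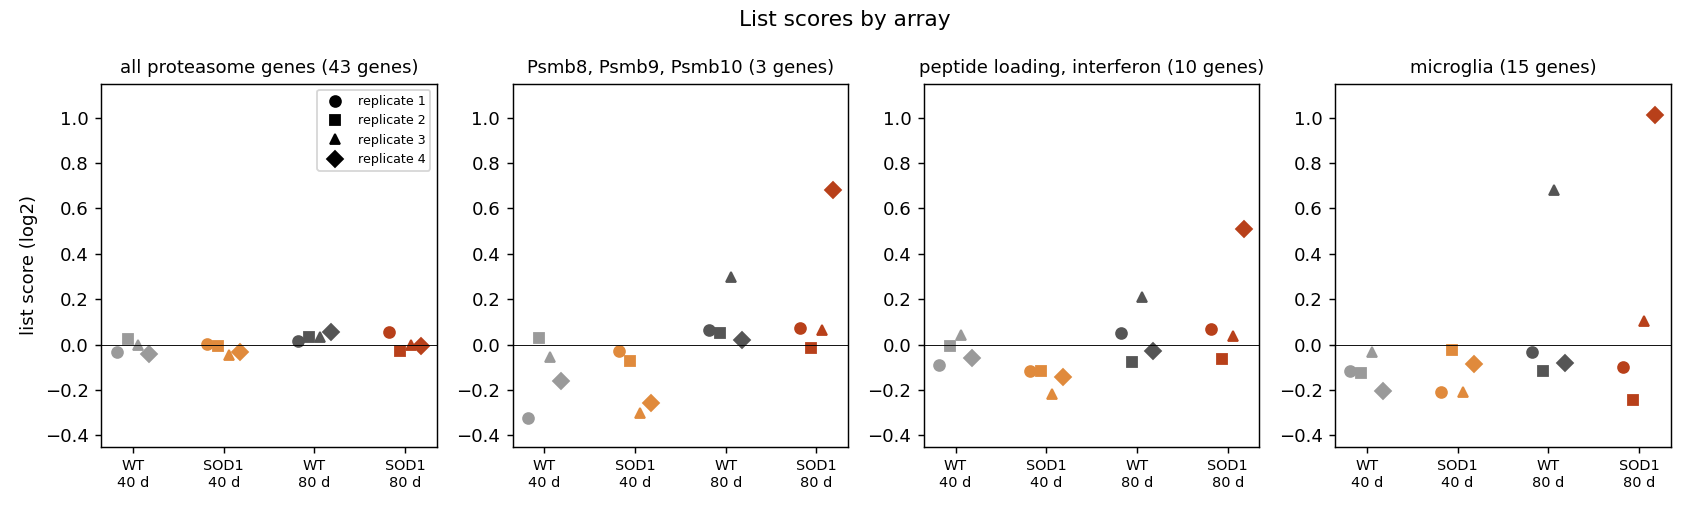
List score on each array (median log2 deviation of the list's genes from their mean over 16 arrays) for the 43 proteasome genes, the 3 immune subunits, 10 peptide loading and interferon genes and 15 microglia genes; WT is wild-type and SOD1 is SOD1G93A. The proteasome genes as a whole, the longest list, stay near 0, while replicate 4 of SOD1G93A at 80 days is highest in the other 3 panels.

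Of the 10 peptide loading and interferon genes tested, 9 had lower means in SOD1G93A at 40 days. The scores of this list ran from -0.09 to 0.04 in wild-type and from -0.22 to -0.12 in SOD1G93A. Only the MHC class I light chain *B2m* passed the threshold, with -0.25, where 3.9% of all genes passed. At 80 days 8 of the 10 had higher means and 2 passed, where 6.46% of all genes did. The scores at 80 days ran from -0.08 to 0.21 in wild-type. In SOD1G93A they were 0.07, -0.06, 0.04 and 0.51, so only replicate 4 lay above the wild-type range. *Tap2*, a subunit of the peptide transporter whose gene neighbours *Psmb8* and *Psmb9*, was up regulated by 0.29 with an interval of 0.13 to 0.45 and no overlap of the groups. The heavy chain *H2-D1* was up regulated by 0.57 with an interval of 0.04 to 1.11 and overlapping groups. Without SOD1G93A replicate 4 *Tap2* had 0.26 and still passed, while *H2-D1* had 0.43 with an unadjusted limma p of 0.105. Leaving out any of 4 of the 8 arrays ended the call of *H2-D1*. Partners of the proteasome outside the naming rule, such as ubiquitin receptors, Nfe2l1 and assembly factors, numbered 19. Of these 0 passed at 40 days and 1 at 80 days, where 3.9% and 6.46% of all genes did, so they were not called more often than genes in general. The 1 was *Zfand2a*, a stress-induced proteasome adaptor, with 0.12 and an interval of 0.0004 to 0.25. Leaving out any of 7 of the 8 arrays ended its call.

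Whether the genotype difference itself changed between the ages was tested on 16 arrays. Of 43 proteasome genes 2 passed, where 5.8% of 15247 genes did, 2.73% as more positive and 3.07% as more negative at 80 days. *Psmb2* moved from -0.08 at 40 days to 0.19 at 80 days, a difference of 0.27 with an interval of 0.07 to 0.47, an unadjusted limma p of 0.0117 and an exact permutation p of 0.0159 over 4900 relabelings. *Psmb3* moved from -0.02 to -0.21, a difference of -0.19 with an interval of -0.37 to -0.01 and an unadjusted limma p of 0.0408. Leaving out any of 10 of the 16 arrays ended the call of *Psmb3*, and with the slide as a block its unadjusted limma p was 0.055. No single array ended the call of *Psmb2*, but with Cy3 alone it had 0.17 and with the series matrix 0.155, with unadjusted limma p of 0.152 and 0.184. For *Psmb9* the difference was 0.36 with the wide interval of -0.08 to 0.79, and for *Psmb8* 0.11 with -0.30 to 0.51. The smallest Benjamini-Hochberg adjusted limma p among the proteasome probes was 0.64.

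*Psmd9*, an assembly chaperone of the 19S base, gave different values on its 2 probes. On the dimmer probe its ratios at 40 days were 0.12, 0.25, 0.19 and 0.65 in wild-type and 0.01, 0.07, 0.01 and -0.06 in SOD1G93A. All transgenic arrays were below all wild-type arrays, and the change was -0.29 with an unadjusted limma p of 0.0184. At 80 days it was 0.07, and the difference between the ages was 0.37 with an unadjusted limma p of 0.0116. On the brighter probe the changes were -0.01 and 0.08, and neither passed. The 2 probes did not give the same result.

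**Figure D4:**
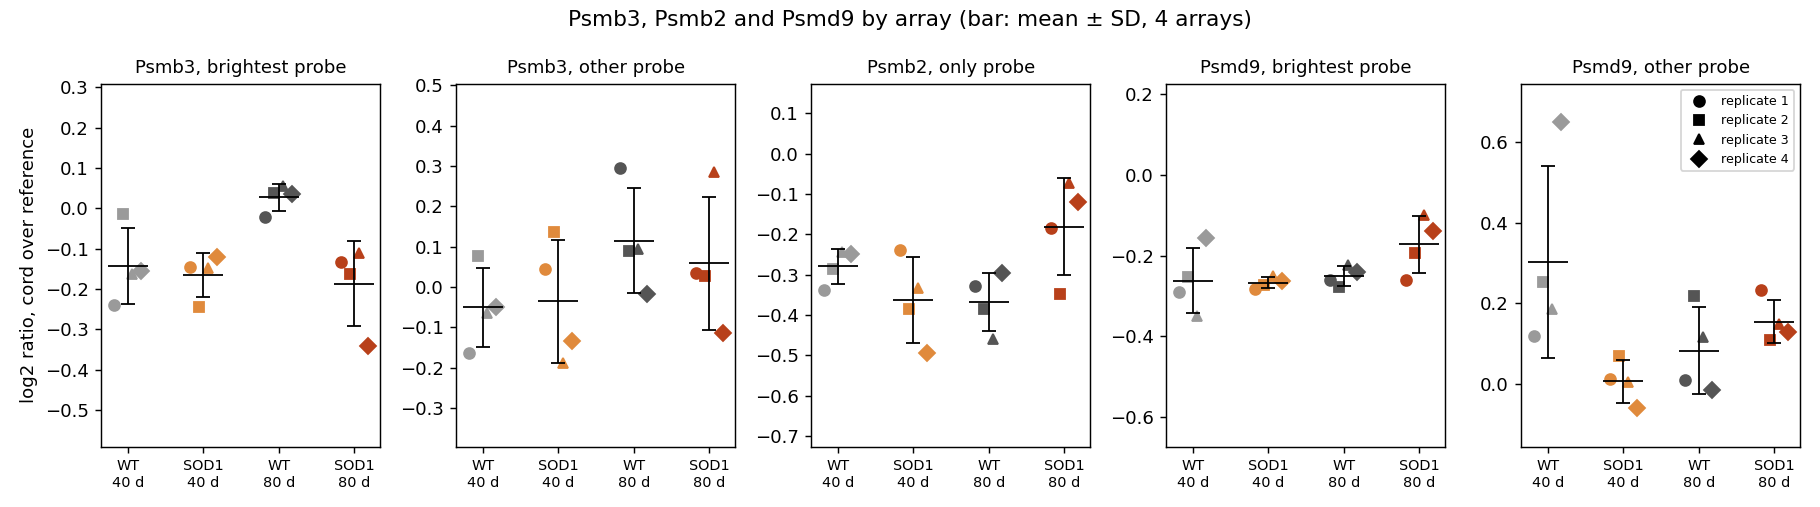
Log2 ratio of cord over reference on each array for *Psmb3* (both probes), *Psmb2* (its only probe) and *Psmd9* (both probes), with WT for wild-type and SOD1 for SOD1G93A; points are arrays, bars are mean and SD of 4 arrays, and every panel spans 0.9 log2 units. The brighter *Psmb3* probe separates the genotypes at 80 days and the other probe does not, and the dimmer *Psmd9* probe separates them at 40 days.

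Between 40 and 80 days more proteasome genes moved, as did genes in general. In wild-type mice 7 of 43 passed the threshold, all higher at 80 days, where 15.4% of 15247 genes passed, 7.25% as higher and 8.14% as lower. In SOD1G93A mice 6 were higher and 1 lower, where 17.5% passed, 9.23% as higher and 8.27% as lower. The median change of the proteasome genes was 0.04 in wild-type and 0.05 in SOD1G93A, against 0.02 and 0.01 for all genes. None passed after adjustment, with 0.157 and 0.114 as the smallest adjusted limma p, while 348 and 246 of all probes did.

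*Psmc5*, *Psmd4*, *Psmd3* and *Psmb8* were up regulated with age in both genotypes. *Psmc5*, an ATPase of the cap, rose by 0.21 in wild-type and 0.18 in SOD1G93A, *Psmd4* by 0.31 and 0.25, and *Psmd3*, a lid subunit, by 0.15 and 0.14. In wild-type *Psma1*, *Psmb3* and *Psmb1* of the core also rose, by 0.16, 0.17 and 0.16. In SOD1G93A *Psmb2* rose by 0.18, and *Psmd11*, a lid subunit, fell by 0.20. All 7 wild-type calls ended without loess, where 6 proteasome genes were instead called lower at 80 days and none higher, and the series matrix gave 2 calls higher and 2 lower in each genotype. Single arrays mattered as well: for *Psmd3* in SOD1G93A 6 of 8 arrays and for *Psmd4* 5 of 8 ended the call when left out. With the slide as a block, *Psmd3* ended in both genotypes and *Psmd4* in SOD1G93A, with unadjusted limma p of 0.053, 0.0558 and 0.0545. A difference between the genotypes in these age changes is the test given above, which only *Psmb2* and *Psmb3* passed.

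By brightest probe, the largest age changes belonged to *Psmb8* of the immunoproteasome and, in SOD1G93A only, to *Psmb9* as well. *Psmb8* rose by 0.35 in wild-type, with an interval of 0.06 to 0.63, and by 0.45 in SOD1G93A, with 0.17 to 0.74. On this brighter probe the 4 arrays at 80 days, from -0.73 in wild-type and from -0.59 in SOD1G93A, lay above the 4 at 40 days, up to -0.75 and up to -0.60. On the other *Psmb8* probe the wild-type change was 0.27, with an interval of -0.06 to 0.60, an unadjusted limma p of 0.103 and overlapping ages, and that in SOD1G93A was 0.48 with no overlap. *Psmb9* rose by 0.46 in SOD1G93A, with an interval of 0.15 to 0.77 and no overlap of the ages. In wild-type its change was 0.10 with -0.21 to 0.41, and the ages overlapped. Without SOD1G93A replicate 4 at 80 days the changes in SOD1G93A were 0.30 for *Psmb8* and 0.29 for *Psmb9*, with unadjusted limma p of 0.0136 and 0.0257. In wild-type, without replicate 3 at 80 days, *Psmb8* had 0.26 and an unadjusted limma p of 0.0782. In the series matrix none of these 3 rises passed, with changes of 0.07 and 0.14 for *Psmb8* in wild-type and SOD1G93A and 0.18 for *Psmb9* in SOD1G93A. The wild-type call of *Psmb8* also ended without loess, with Cy3 alone and with every local background kept, at changes of 0.25 to 0.29. *Psmb10* had changes of 0.11 in both genotypes and did not pass.

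**Figure D5:**
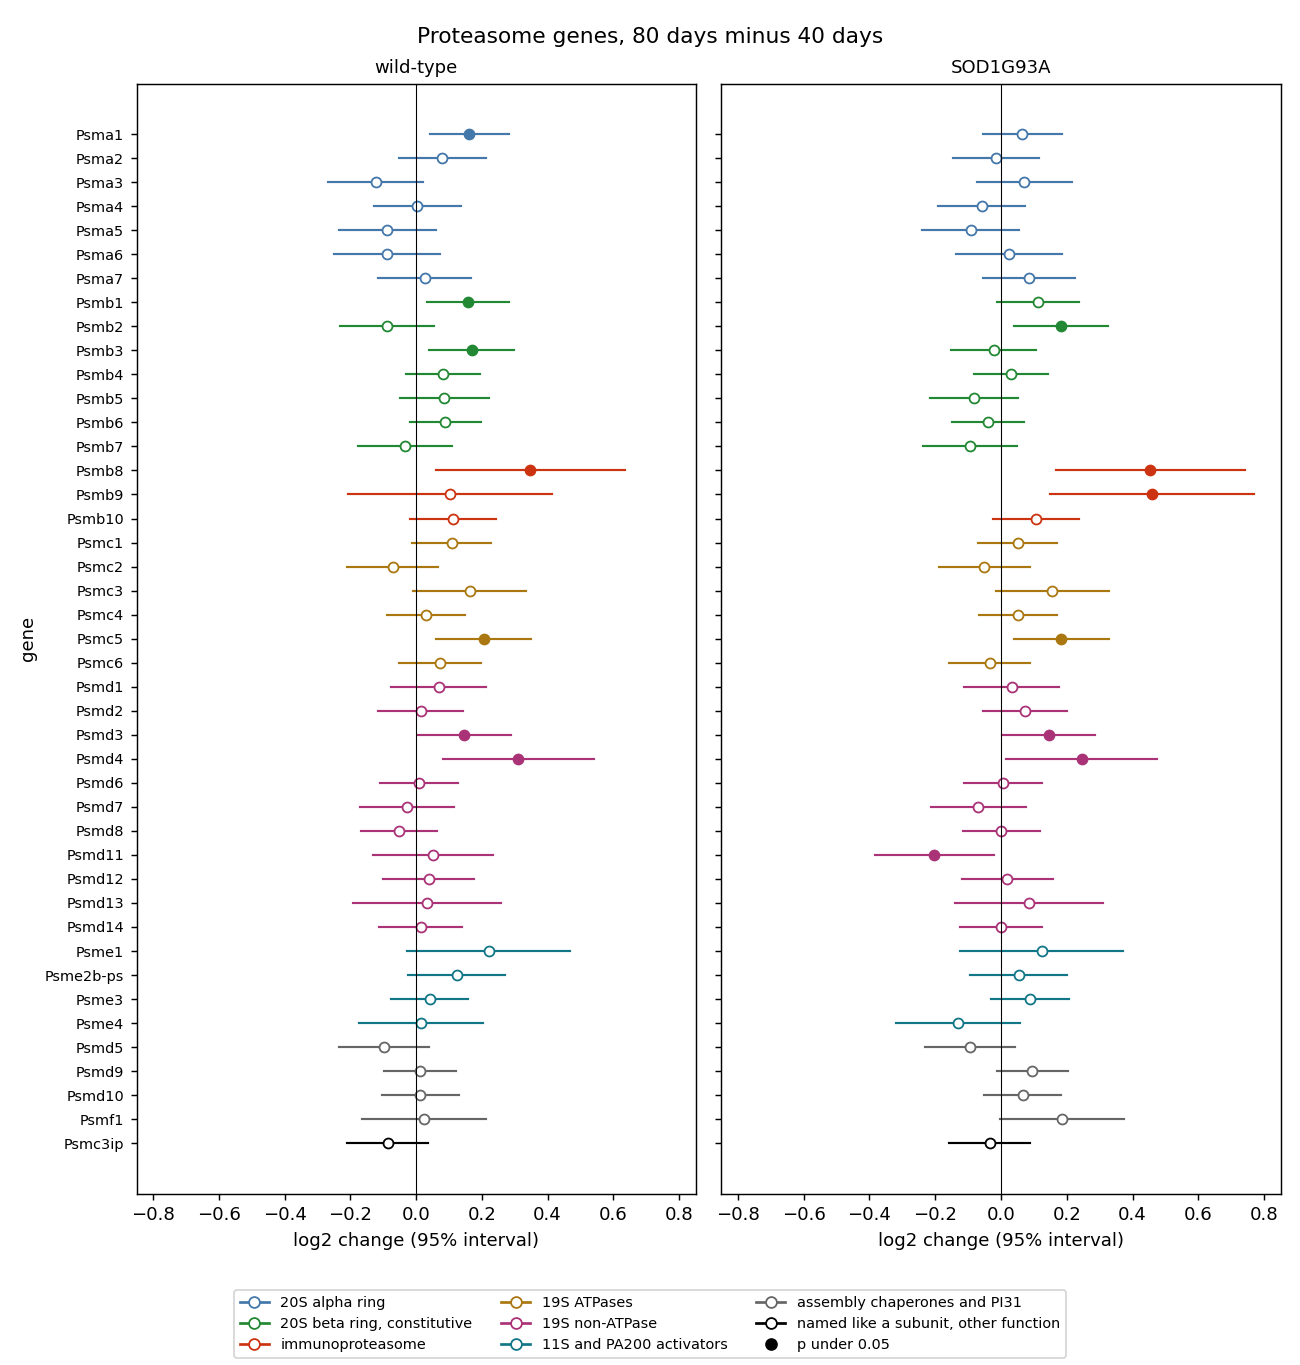
Log2 change (80 days minus 40 days) of the brightest probe of each of the 43 tested genes in wild-type (left) and SOD1G93A (right), ordered and coloured by role; lines are 95% intervals from limma on 16 arrays and filled points have an unadjusted p under 0.05. *Psmb8* has the largest change in wild-type, and *Psmb8* and *Psmb9* have the largest in SOD1G93A.

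Of the 10 peptide loading and interferon genes, 8 were higher at 80 days in SOD1G93A. Of these 4 passed the threshold, where 17.5% of all genes passed, and 0 passed in wild-type, where 15.4% did. Without passing, 8 of 10 were higher in wild-type too, against 5 of 10 with the series matrix or without loess, and the difference between the genotypes itself passed for 1 of 10, *Tap2*. The 4 were *Tap2* by 0.44, the interferon regulatory factor *Irf1* by 0.47, *H2-K1* by 0.65 and *H2-D1* by 0.98. *Tap2* and *Irf1* also passed after adjustment, with Benjamini-Hochberg limma p of 0.012 and 0.0399. SOD1G93A replicate 4 at 80 days had the score of 0.51 given above, and the other 3 arrays of its group had -0.06 to 0.07. Without it the changes were 0.41 for *Tap2*, 0.38 for *Irf1*, 0.42 for *H2-K1* and 0.83 for *H2-D1*. *H2-K1* then no longer passed, with an unadjusted limma p of 0.0631, and the adjusted limma p was 0.0375 for *Tap2* and 0.077 for *Irf1*. For *Tap2* the difference between the genotypes was itself 0.38, with an interval of 0.13 to 0.62. Of the 15 microglia genes, 13 were higher at 80 days in wild-type and 14 in SOD1G93A. Of these 2 and 3 passed, where 15.4% and 17.5% of all genes did. The lowest, *P2ry12*, had -0.118 and -0.145. Microglia scores at 80 days were -0.03, -0.12, 0.68 and -0.08 in wild-type and -0.10, -0.24, 0.10 and 1.01 in SOD1G93A. At 40 days they ran from -0.21 to -0.03 and from -0.21 to -0.02, so most arrays at 80 days lay near the younger ones. The complement genes *C1qb* and *C1qc* passed in both genotypes, with 0.62 and 0.67 in wild-type and 0.50 and 0.61 in SOD1G93A. *Tmem119* passed in SOD1G93A. Without SOD1G93A replicate 4 at 80 days none of the 3 passed in SOD1G93A, with changes of 0.26, 0.34 and 0.21. The part of microglia in the changes of *Psmb8* and *Psmb9* was not tested. Of the 7 oligodendrocyte genes, 6 were lower at 80 days in wild-type and 7 in SOD1G93A, with 3 and 4 past the threshold.

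*Psmb8*, *Psmb9* and the peptide transporter genes lie together in the MHC region, with *Psmb9* and *Tap1* starting head to head. The 250 bases before the start of both immune subunits are printed because these members moved most between arrays. They are from RefSeq on GRCm38, and capitals mark the motifs found.
Psmb8 promoter (GRCm38, chr17:34197945-34198194, plus strand): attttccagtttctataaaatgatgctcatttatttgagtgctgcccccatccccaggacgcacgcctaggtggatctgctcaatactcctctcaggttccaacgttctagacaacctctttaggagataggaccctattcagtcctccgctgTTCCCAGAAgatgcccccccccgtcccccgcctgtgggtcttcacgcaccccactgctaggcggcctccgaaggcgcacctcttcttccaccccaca
Psmb9 promoter (GRCm38, chr17:34187331-34187580, minus strand): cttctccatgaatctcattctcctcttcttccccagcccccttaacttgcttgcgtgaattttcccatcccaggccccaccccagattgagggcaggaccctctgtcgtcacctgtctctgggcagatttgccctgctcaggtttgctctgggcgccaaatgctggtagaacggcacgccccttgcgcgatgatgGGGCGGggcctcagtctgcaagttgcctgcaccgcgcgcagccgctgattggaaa
In *Psmb8* the capitals are a Stat palindrome, TTCNNNGAA, at -97 to -89, and in *Psmb9* an Sp1 box, GGGCGG, at -55 to -50. Both motifs, and the 3 that follow, were sought on both strands of the 250 bases before the start in 37 proteasome genes with a promoter in the table and in all 27025 genes of the table.

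The Stat palindrome was present in 1 of the 37 genes, or 2.7%, against 8.1% of all genes. The Sp1 box was present in 56.8% against 35.4%. The interferon response repeat, GAAANNGAAA, was present in 8.1% against 3.5%, in *Psmb3*, *Psmd4* and *Psmd9* and in none of the immune subunits. The core of the antioxidant response element, TGACNNNGC, which the activator Nfe2l1 and its relatives use, was present in 13.5% against 11.5%, in *Psmb5*, *Psmb6*, *Psmc6*, *Psmd12* and *Psmd9*. The Ets core, CCGGAAG, was present in 32.4% against 7.8%. These shares describe letters in a window and were not tested.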

How the data were processed

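The members and gene lists were chosen with earlier results of these data known. The authors hybridized Cy3-labeled lumbar cord RNA with a Cy5-labeled reference on 16 Agilent whole mouse genome arrays, with no dye swap, and extracted spots with Agilent Feature Extraction 9.5.3.1 (per the labels and file headers, build mm7). The deposited files give spot intensity on a linear scale without normalization. Normalized log2 values made by the authors with limma, in the deposited series matrix, served as an alternative only.

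Log2 ratios of Cy3 over Cy5 were computed from median signals in R 4.3.3 with limma 3.58.1. Local backgrounds more than 20 units above their spot were reset to the array median. Then followed normexp (offset 50), within-array loess and between-array Aquantile normalization. Control and outlier spots were left out. Probes entered the tests when 1 group or more had Cy3 well above background in 3 or all 4 of its arrays and every group had 2 measured arrays or more. Each gene was represented by its brightest tested probe. The number of arrays limits the precision. Saturated spots numbered 0 in Cy3 and at most 1 per array in Cy5.

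Genotypes were compared with lmFit and eBayes on the 8 arrays of an age, and ages and the difference of the genotype change on 16 arrays. The threshold was the study's own, a two-sided limma p under 0.05 without adjustment, with Benjamini-Hochberg adjustment over all probes beside it. Single genes had an exact permutation test. Since the labels do not say how replicate arrays were drawn beyond biological replicates, p-values measure the spread between these samples. Tested on simulated data at 40 and 80 days, the fit recovered 79% and 72% of probes changed by 0.25 and 97% and 100% of those changed by 0.5. These probes were drawn at random and their noise was independent between arrays, with no array apart from the rest. The shares need not hold for the widest intervals, with half-widths of 0.269 for *Psmb9* at 40 days and 0.356 for *Psmb8* at 80 days.

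Named genes were the catalytic and immune beta subunits, *Psme1* and *Psme2*, those with p under 0.05 in a comparison, the lowest and highest of each role, and listed partners with p under 0.05. Further genes and second probes were named after their values were seen. Accessions of 56 of 67 member probes matched RefSeq, 0 with another symbol. Alternatives covered background, normalization, channel, filter, arrays in the fit, weights, probe choice, a replicate block (the same as the slide), and leaving out single arrays. For listed genes outside the naming rule these were chosen after seeing the data. Python 3.11.15 and matplotlib 3.10.9 drew the figures.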

Additional observations from a re-analysis of the deposited data

Results flagged for a closer look

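In 4 of 80 groups of 4 arrays examined, over 20 probes, 1 array stood apart from the other 3 beyond Dixon's 95% limit, which chance alone passes in about 1 group in 20. *Psmb10* had 0.71 on SOD1G93A replicate 4 at 80 days, against 0.50 on the next array. *Psmb7* had 0.83 on SOD1G93A replicate 4 at 40 days, against 0.79, in a group with very little spread. *Psmc5* had 1.66 on wild-type replicate 4 at 40 days, against 1.41. The dimmer probe of *Psmb8* had 0.36 on SOD1G93A replicate 4 at 80 days, against -0.45 on the next array. On the brighter probe of *Psmb8* and on *Psmb9* that array was also highest but did not pass this limit.

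The genotype change differed between the ages, by the test of the difference itself, for *Psmb2* with 0.27, for *Psmb3* with -0.19 and for the dimmer probe of *Psmd9* with 0.37.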

How the results depend on the processing

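No proteasome gene was called at 40 days, but 1 was without background subtraction, 2 without loess and 1 with array weights, and 0 to 4 when single arrays were left out. At 80 days the 2 calls became 1 with processed signals, 1 with the series matrix, 1 without loess, 6 with no filter and 4 with all 16 arrays for the spread, and 1 to 3 without single arrays. For the difference between ages the 2 became 1 with every local background kept, 1 without background subtraction, 1 with processed signals, 0 with Cy3 alone and 0 with the series matrix, and 1 to 3 without single arrays. With the replicate block, which is also the slide (same-slide correlations of deviations from -0.14 to 0.231), that count was 1, and the other 4 comparisons gave 0, 2, 6 and 5. For age in wild-type the 7 became 3 with Cy3 alone and 4 with the series matrix, and 3 to 10 without single arrays. In SOD1G93A the 7 became 4 with the series matrix and 2 to 9 without single arrays.

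Without loess, the medians became -0.0728 at 40 days, 0.0415 at 80 days, 0.118 for their difference and -0.0373 for age in wild-type. With the series matrix the median for age was 0.00448 in wild-type and 0.000955 in SOD1G93A, where processed signals gave 0.00571, Cy3 alone 0.0163 and single arrays left out 0.0208 to 0.0512.

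Among the 43 genes, small changes that were not called turned sign under some settings. At 40 days *Psmb6* became -8.35e-05 without background subtraction, -0.000604 with processed signals, -0.0322 with Cy3 alone, -0.0548 with the series matrix, -0.0638 without loess and -0.0128 with array weights. *Psmb7* became -0.0412 with Cy3 alone, -0.062 with the series matrix and -0.0315 without loess. *Psmb8* became -0.00688 without loess and -0.00306 with the mean of its probes, *Psme1* -0.0681 without loess and -0.00692 with array weights, and *Psme2b-ps* -0.0583 without loess. At 80 days, without loess, *Psmb10* became 0.0108, *Psmb7* 0.0262 and *Psme2b-ps* 0.0285. With single arrays left out at 40 days, *Psmb6* ran from -0.0391 to 0.033, *Psmb7* from -0.0395 to 0.0659, *Psmb8* from -0.00731 to 0.0985, *Psme1* from -0.0733 to 0.0922 and *Psme2b-ps* from -0.0212 to 0.0541. At 80 days *Psmb8* ran from -0.00421 to 0.248 and *Psmb9* from -0.0652 to 0.182. The cause was not tested. Signals near background limit what *Psmb2*, *Psmb8* and *Psmb9* can show.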

Other observations

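The assembly chaperones whose older names the naming rule does not take did not pass the threshold in any of the 5 comparisons. *Psmg1*, listed as *Dscr2*, had changes of -0.08 at 40 days and -0.06 at 80 days in SOD1G93A. *Psmg3*, listed as *1810042K04Rik*, had 0.003 and -0.10. *Psmg2*, listed as *Tnfsf5ip1*, had -0.09 and -0.01. *Psmb11* of the thymus core, listed as *5830406J20Rik*, was not tested, since its probes did not pass the filter on dim signals.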
